A study of Homo sapiens
Mus musculus with 5 samples.

Results

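The respiratory chain genes described here are the genes for the protein subunits of complexes I to V of the mitochondrial inner membrane, with their close namesakes. They were chosen by symbol alone, from mitochondrial symbols of the ND, CO, ATP and CYB families and from nuclear symbols beginning NDUF, SDH, UQCR, CYC1, COX4 to COX8 or ATP5. Of 50152 genes in all, 221 had such a symbol, 128 of the 25524 human genes and 93 of the 24628 mouse genes. The human members were 13 mitochondrially encoded genes, 77 nuclear subunit genes, 6 paralogs or factors with a similar name, 28 pseudogenes, 3 antisense genes and 1 readthrough transcript. The mouse members were 6 mitochondrially encoded genes, 80 nuclear subunit genes, 4 paralogs or factors and 3 pseudogenes. Mouse cytochrome b is spelled mt-Cytb and does not match the symbol rule. Among the 24628 mouse genes, none had a matching symbol for mitochondrial Nd3, Nd4l, Co2, Co3, Atp6 or Atp8. The mitochondrial sets of the species therefore differ, 13 genes in human and 6 in mouse.

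The respiratory chain passes electrons from NADH and succinate to oxygen and pumps protons, and ATP synthase (complex V) uses the proton gradient to make ATP. Its subunits come from both genomes. The mitochondrial DNA encodes core subunits of complexes I, III, IV and V, all transcribed as long precursor RNAs inside the organelle, while the other subunits, all of complex II included, are transcribed in the nucleus and imported as proteins. Brain and heart are among the tissues that depend most on this pathway, and several complex IV subunits have isoforms that differ between muscle, lung and other tissues.

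RNA was sequenced from tumors that the human lung adenocarcinoma line H2030-BrM3 formed in athymic nu/nu mice, animals without a thymus and hence with few T cells. There were 3 brain tumors and 2 orthotopic lung tumors, for which the cells had been given through the trachea. All tumors come from 1 cell line, and the labels do not say whether each came from a separate animal, so each p-value reflects the spread between these libraries alone, which may be technical. Human genes were read as the cancer cells and mouse genes as the host tissue of the same library. Values are RPKM, reads scaled to the length of the gene and the size of the library, and a gene was called where the adjusted p of a limma fit over all genes of its table was under 0.05.

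Reads recovered from the RPKM numbered 2445904 to 8419288 in the human libraries and 2710983 to 8636094 in 4 of the mouse libraries, but 231156 in the mouse part of lung tumor 1. In that library the host members rest on 4230 reads, of which 739 are of the 6 mitochondrially encoded genes. The carcinoma markers EPCAM, KRT8 and KRT18 were present in all 5 human libraries, whereas KRT19 was at 0.458 RPKM or less. Summed neuron markers lay at 1225 to 2100 RPKM in the host of the brain tumors, against 29.0 and 4.58 in the host of lung tumors 1 and 2. The summed alveolar and airway markers lay at 23.2 to 66.5 RPKM in the brain tumors, at 921 in lung tumor 1 and at 63062 in lung tumor 2. The lung tumors thus differ from each other in their host tissue, and lung tumor 1 stands apart in most results below. In bulk RNA, fewer cells of a type and less RNA per cell cannot be told apart.

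In both the cancer cells and the host, transcripts of mitochondrially encoded subunits stood higher relative to nuclear subunits in every brain tumor than in either lung tumor. The mean RPKM of the 13 human mitochondrially encoded genes was 19.5, 36.3 and 27.1 times that of the 77 nuclear subunit genes in brain tumors 1, 2 and 3, against 8.68 and 16.3 times in lung tumors 1 and 2. The mean of these ratios was 27.6 ± 8.45 in the brain tumors (SD, n = 3) and 12.5 in the lung tumors. In the host, the mean of the 6 mitochondrially encoded genes was 13.5, 15.9 and 13.8 times the nuclear mean in the brain tumors, against 1.63 and 10.8 times in the lung tumors. The groups did not overlap in either species. A ratio over members chosen with the data known has no test here, and an exact permutation of 3 against 2 libraries could not give a two-sided p under 0.2.

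The separation of brain from lung tumors held in each complex with subunits from both genomes. For human complex I the ratio was 26.1, 41.6 and 36.2 in the brain tumors, against 8.98 and 23.3 in the lung tumors. Complex IV had 24.1, 49.1 and 30.2 in the brain tumors, against 10.8 and 19.1 in the lung tumors. Complex V had the lowest ratios, 7.48, 19.6 and 13.4 in the brain tumors, against 2.41 and 5.22 in the lung tumors. Complex III, in which only cytochrome b is mitochondrially encoded, had 12.1, 27.8 and 19.6 in the brain tumors, against 5.49 and 9.97 in the lung tumors. In all 4 of these complexes brain tumor 2 had the highest ratio and lung tumor 1 the lowest. In the host, complex I gave 18.6, 22.4 and 19.8 in the brain tumors, against 2.31 and 13.8 in the lung tumors. Host complex IV, with mt-Co1 as its 1 mitochondrial member here, gave 24.4, 28.8 and 24.0 in the brain tumors, against 1.43 and 21.3 in the lung tumors. Without lung tumor 1, the brain mean over the remaining lung tumor was 1.69 in the cancer cells and 1.33 in the host, compared with 2.21 and 2.31 with both lung tumors. Without lung tumor 2 it was 3.18 in the cancer cells and 8.83 in the host.

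**Figure D1:**
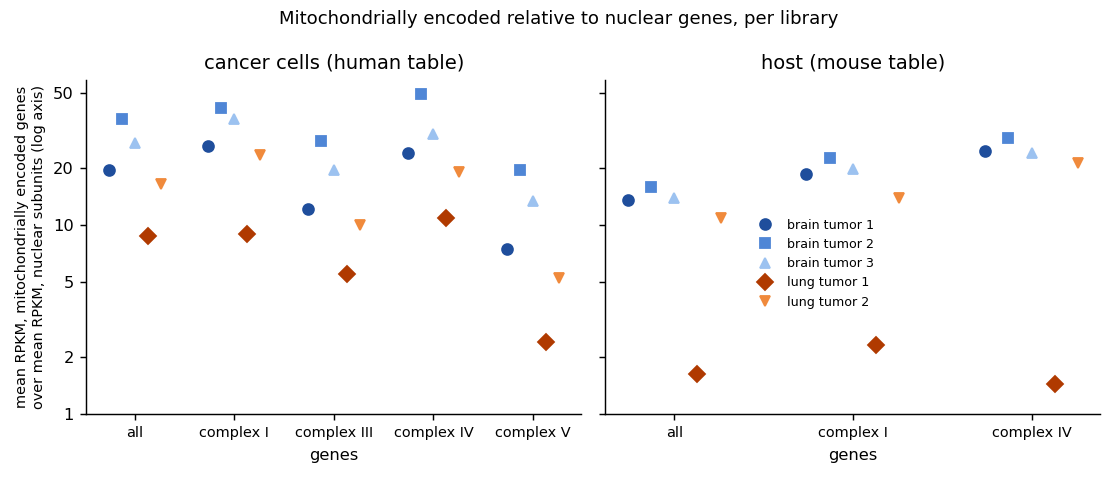
Mean RPKM of the mitochondrially encoded genes divided by the mean RPKM of the nuclear subunits (log axis), for all complexes and for each complex with members of both genomes, in the cancer cells (left) and the host (right). Each point is 1 library; in every column the 3 brain tumors lie above both lung tumors, and lung tumor 1 is lowest.

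Both sides of this ratio differed among the libraries of the cancer cells. Summed over the 13 mitochondrially encoded genes, the RPKM were 46227, 79021 and 55442 in the brain tumors, against 44793 and 32969 in the lung tumors. Summed over the 77 nuclear subunits, they were 14076, 12885 and 12098 in the brain tumors, against 30560 and 11946 in the lung tumors. The low ratio of lung tumor 1 thus goes with a nuclear sum above that of every other library, and that of lung tumor 2 with the lowest mitochondrial sum of the 5.

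Across all 14423 human genes tested, 1 was called between brain and lung tumors (0.00693%), and none of the 13 mitochondrially encoded genes or the 75 tested nuclear subunits was. At an unadjusted p under 0.05, limma gave 888 genes higher (6.16%) and 629 lower (4.36%) in the brain tumors, among them 4 mitochondrially encoded genes, all higher, and 4 nuclear subunits, all lower. A second fit, limma voom on the recovered reads, also called no member. The log2 fold changes of the mitochondrially encoded genes ranged from -0.22 to 2.46 with 12 of 13 above 0, beside a median of 0.09 over all genes. In 7 of the 13 every brain tumor lay above both lung tumors, an order seen in 17.4% of all genes tested.

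MT-ATP8 and MT-ATP6 encode the membrane subunits of ATP synthase that the mitochondrion supplies, and they lie on the mitochondrial chromosome of GRCh38.p14 at positions 8366 to 8572 and 8527 to 9207, with 46 bases in common. MT-ATP8 had 1728, 4254 and 2835 RPKM in the brain tumors, against 276 and 899.8 in the lung tumors. All brain tumors were above both lung tumors. The log2 fold change, 2.46 with an SE of 0.59, was the largest among the 13 genes (limma adjusted p = 0.349). MT-ATP6 had 2637, 6366 and 4017 RPKM in the brain tumors, against 2201 and 1526 in the lung tumors. Here too the groups did not overlap, and the log2 fold change was 1.15 (SE 0.50, limma adjusted p = 0.474). Reads in the shared stretch can belong to either gene, and how the authors assigned them is not given in the sources used here.

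Complex I has 7 mitochondrially encoded subunits, the ND genes, which form the proton-pumping membrane arm. MT-ND5 (positions 12337 to 14148) had 2298, 3994 and 2537 RPKM in the brain tumors, against 665 and 1551 in the lung tumors. Its groups did not overlap and its log2 fold change was 1.49 (SE 0.49, limma adjusted p = 0.456). MT-ND4L (positions 10470 to 10766, sharing 7 bases with MT-ND4) had 4807, 6821 and 5004 RPKM in the brain tumors, against 654 and 3533 in the lung tumors. Its log2 fold change was 1.85 (SE 0.68, limma adjusted p = 0.470), and 0.63 without lung tumor 1.

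MT-ND4 had 7682, 10557 and 6958 RPKM in the brain tumors, against 3907.5 and 6534 in the lung tumors, again with no overlap. MT-ND1 had 2459, 3727.5 and 4585 RPKM in the brain tumors, against 1911 and 2046 in the lung tumors. MT-ND2 did not separate the groups, with 1648, 2464 and 2581 RPKM in the brain tumors, against 2326 and 1604 in the lung tumors. MT-ND3 was the 1 gene of the 13 with a negative fold change. It had 2544, 3951 and 3409 RPKM in the brain tumors, against 7572 and 1896 in the lung tumors, so that lung tumor 1 was the highest and lung tumor 2 the lowest of the 5. Its log2 fold change was -0.22 (SE 0.62, limma adjusted p = 0.903), and 0.78 without lung tumor 1. MT-ND6, the 1 subunit gene on the opposite strand, had the lowest levels, with 355, 416 and 193 RPKM in the brain tumors, against 156 and 224 in the lung tumors. Whether the counting used strand is not given in the sources used here, so reads of MT-ND6 and of RNA antisense to it cannot be told apart.

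Complex III takes 1 subunit from the mitochondrion, cytochrome b. MT-CYB had 2213, 4641 and 2851 RPKM in the brain tumors, against 1861 and 1589.7 in the lung tumors, without overlap (log2 fold change 0.84, SE 0.45, limma adjusted p = 0.513). Complex IV takes its catalytic core of MT-CO1, MT-CO2 and MT-CO3 from the mitochondrion, and none of these separated the groups. MT-CO1 had 6036, 9025 and 4368.5 RPKM in the brain tumors, against 2790.0 and 5060.3 in the lung tumors. MT-CO2 had 5572, 9644 and 6595 RPKM in the brain tumors, against 10185 and 3220.1 in the lung tumors. Lung tumor 1 was therefore the highest library for MT-CO2 and the lowest for MT-CO1.

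**Figure D2:**
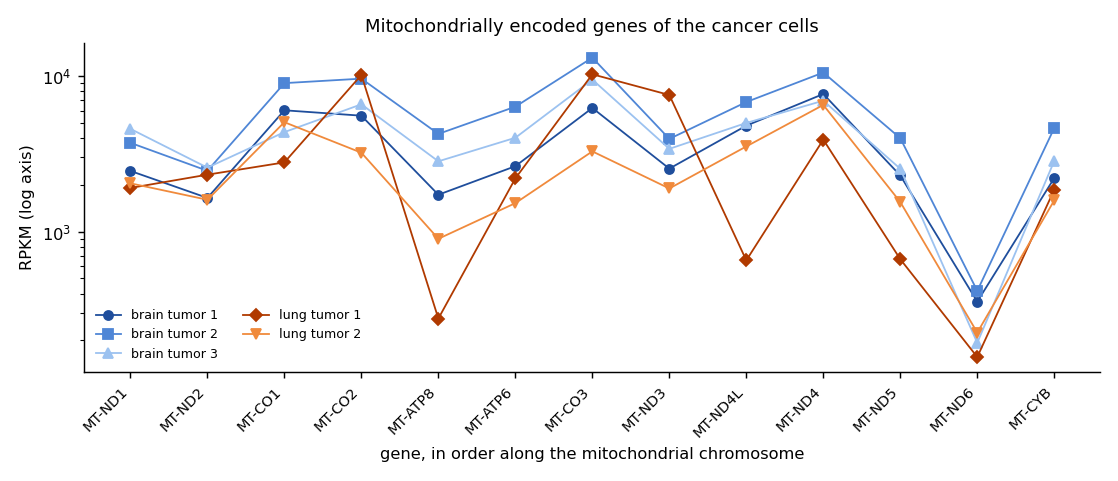
RPKM of the 13 mitochondrially encoded genes of the cancer cells (log axis), in their order along the mitochondrial chromosome, with 1 line per library that joins points only as a guide. The brain tumors and lung tumor 2 follow similar profiles, while lung tumor 1 is lowest at MT-ATP8, MT-ND4L and MT-ND5 and highest at MT-ND3 and MT-CO2.

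In the proportions among the 13 genes, lung tumor 1 stood apart from the brain tumors and from lung tumor 2. The RPKM of MT-ATP8 was 0.655, 0.668 and 0.706 of that of MT-ATP6 in the brain tumors, against 0.125 in lung tumor 1 and 0.590 in lung tumor 2. MT-ND4L stood at 0.626, 0.646 and 0.719 of MT-ND4 in the brain tumors, against 0.167 and 0.541 in lung tumors 1 and 2. In both pairs the shorter gene was low relative to the longer one in lung tumor 1, where MT-ND4 itself was also at its lowest. For MT-ND3 over MT-ND4 the ratio was 0.331, 0.374 and 0.490 in the brain tumors, against 1.94 and 0.290 in the lung tumors. MT-CO2 over MT-CO1 was 0.923, 1.07 and 1.51 in the brain tumors, against 3.65 and 0.636 in the lung tumors. These ratios compare levels per length within 1 library, so library scaling leaves them as they are, and each gene compared has 382 reads or more in every library. Lung tumor 1 was the lowest library in 7 of the 13 genes and the highest in 2, where 40.8% and 24.2% of all genes tested had it lowest and highest.

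The nuclear subunits of the cancer cells were even among the brain tumors and high in lung tumor 1. Over the 3 brain tumors the median coefficient of variation of the 75 tested nuclear subunits was 9.41%. It was 24.6% for all genes and 31.2% for the mitochondrially encoded genes. These sets differ in level, with medians of 154, 19.2 and 3349 RPKM in the same order, and the part of level was not tested. In 67 of the 75 lung tumor 1 was the highest of the 5 libraries, an order found in 24.2% of all genes. By complex these were 32 of 36 in complex I, 3 of 4 in complex II, 7 of 9 in complex III, 11 of 11 in complex IV and 14 of 15 in complex V. The median log2 difference of lung tumor 1 from the brain mean was 1.36 over the nuclear subunits and -0.25 over all genes. For lung tumor 2 it was -0.11 over the nuclear subunits and 0.01 over all genes. The brain minus lung log2 fold change over both lung tumors had a median of -0.65 and was below 0 in 63 of 75 subunits. That median was 0.11 without lung tumor 1, and -1.36 without lung tumor 2.

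Leaving out lung tumor 2 raised the human genes called to 1905, with 45 of the 75 nuclear subunits lower in the brain tumors (4.78% of all genes) and 3 mitochondrially encoded genes higher (8.42% of all genes). Leaving out lung tumor 1 left 0 genes called, with 1435 at an unadjusted p under 0.05. Lung tumor 1 also differed by gene length. The human genes tested were split into 5 equal groups by the length implied by the recovered reads. This length can be a fraction of the true one. The shortest group holds 32 of the 75 nuclear subunits. In lung tumor 1 it deviated from the mean of the libraries by a median of -0.06 on the log2 scale. The longest group deviated by -0.53 there, and the nuclear subunits by 1.10. After a correction for gene length the median brain minus lung log2 fold change of the nuclear subunits was -0.68.

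**Figure D3:**
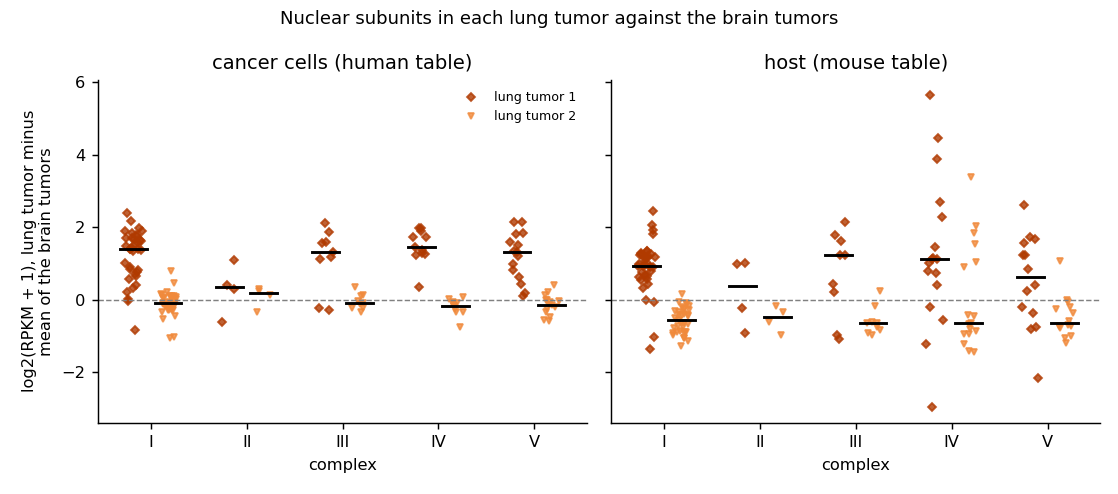
Difference of log2(RPKM + 1) between each lung tumor and the mean of the brain tumors, for each tested nuclear subunit by complex (points) with the median of the complex (black lines), in the cancer cells (left) and the host (right). Positive values are higher in the lung tumor; lung tumor 1 lies above the dashed line of no difference at the median of every complex in both species, and the medians of lung tumor 2 lie near or below it.

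Among the complex I subunits of the nucleus, NDUFA13 (chromosome 19, 19516225 to 19528198) had the most negative fold change of the 75. It had 27.0, 18.8 and 16.9 RPKM in the brain tumors, against 110.6 and 28.5 in the lung tumors, so all brain tumors were below both lung tumors (log2 fold change -1.42, SE 0.56, limma adjusted p = 0.471). NDUFB3, an accessory subunit of the membrane arm (chromosome 2, 201072001 to 201085750), had both lung tumors close together. Its RPKM were 204.6, 166 and 140.2 in the brain tumors, against 315 and 289 in the lung tumors (log2 fold change -0.84, SE 0.32, limma adjusted p = 0.470). Every brain tumor was below both lung tumors in 8 of 75 nuclear subunits, NDUFA13, NDUFA6, NDUFB3, NDUFS7, NDUFV1, NDUFV3, SDHB and ATP5G1, an order found in 12.3% of all genes. NDUFS1, which carries iron-sulfur clusters, was one of 4 nuclear subunits lowest in lung tumor 1. It had 91.4, 88.9 and 83.1 RPKM in the brain tumors, against 49.0 and 91.4 in the lung tumors.

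Complex II oxidizes succinate and is wholly nuclear. SDHB, its iron-sulfur subunit, had 138, 119 and 105 RPKM in the brain tumors, against 256 and 148 in the lung tumors. SDHC, a membrane anchor, had 243, 262 and 167 RPKM in the brain tumors, against 141.8 and 260.5 in the lung tumors, with lung tumor 1 the lowest. Of the 75 nuclear subunits tested, 1 had every brain tumor above both lung tumors, an order found in 17.4% of all genes. It was CYC1, the electron carrier subunit of complex III. Its RPKM were 315, 268 and 243 in the brain tumors, against 231 and 232 in the lung tumors, for a log2 fold change that came to 0.24 (SE 0.31, limma adjusted p = 0.771). UQCRQ, a small accessory subunit, had 232, 172 and 146 RPKM in the brain tumors, against 656 and 232 in the lung tumors. Its log2 fold change was -1.11 (SE 0.47, limma adjusted p = 0.474).

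Complex IV was the complex in which lung tumor 1 exceeded every other library in all 11 tested nuclear subunits. COX4I1, its regulatory subunit, had 786, 685 and 708 RPKM in the brain tumors, against 2719 and 637 in the lung tumors. COX6C had 312, 300.3 and 305 RPKM in the brain tumors, against 1199 and 257 in the lung tumors. The tissue isoform COX4I2 was listed at 0 in 4 libraries and at 0.290 RPKM in lung tumor 1, and COX6B2 did not exceed 0.483 RPKM. In complex V, the catalytic subunits ATP5B and ATP5A1 did not separate the groups. ATP5B had 1349, 1168 and 1145 RPKM in the brain tumors, against 1305 and 1048 in the lung tumors. ATP5A1 had 789.7, 789.5 and 741 RPKM in the brain tumors, against 883 and 552 in the lung tumors. The genes ATP5G1, ATP5G2 and ATP5G3 encode the same c subunit of the proton rotor. ATP5G1 had 124, 116 and 99.9 RPKM in the brain tumors, against 281 and 148 in the lung tumors (log2 fold change -0.85, SE 0.37, limma adjusted p = 0.474). ATP5G2 had 337, 339.7 and 304 RPKM in the brain tumors, against 834 and 217 in the lung tumors.

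In the host, 3457 of 15431 genes were called between brain and lung tumors (22.4%), 2204 higher (14.3%) and 1253 lower (8.12%) in the brain tumors. Of the 89 host members tested, 4 were called, mt-Nd1 and mt-Nd5 as higher and Cox4i2 and Cox8b as lower. At an unadjusted p under 0.05, all 6 mitochondrially encoded genes and 7 nuclear subunits were higher (21.9% of all genes) and 4 nuclear subunits lower (16.6% of all genes). The tissues themselves differ here, brain on one side and the host tissue of the lung tumors on the other. The latter was not uniform. Summed alveolar and airway markers were at 921 RPKM in lung tumor 1 and 63062 in lung tumor 2. Summed striated and heart muscle markers were at 982 and 500.4 RPKM. All 6 mitochondrially encoded genes had every brain tumor above both lung tumors, an order found in 30.0% of all genes, and all 6 were lowest in lung tumor 1, as were 41.2% of all genes. Their log2 fold changes had a median of 1.77, against 0.08 over all genes. The median was 1.03 without lung tumor 1 and 2.58 without lung tumor 2.

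Host mt-Nd1 had 4183, 4107 and 4763 RPKM in the brain tumors, against 1317 and 1679.7 in the lung tumors, and averaged 4351 ± 359 in the brain tumors (SD, n = 3) and 1498 ± 257 in the lung tumors (SD, n = 2). On the log2 scale it rose by 1.54 (SE 0.42, limma adjusted p = 0.049). The gene mt-Nd5 had 1697, 1852 and 2075 RPKM in the brain tumors, against 178 and 747 in the lung tumors, and rose by 2.35 (SE 0.64, limma adjusted p = 0.049). Both calls lie close to the threshold. They were lost when any 1 brain tumor was left out, with limma adjusted p = 0.172 to 0.216 for mt-Nd1 and 0.136 to 0.172 for mt-Nd5. Both were also lost at a pseudocount of 0.1, with no filter (limma adjusted p = 0.380 for mt-Nd1 and 0.128 for mt-Nd5) and with the replicate block (0.362 and 0.135 for the same genes), and mt-Nd1 with the gene-length correction. Both held when either lung tumor was left out. The core oxidase gene mt-Co1 had 4357, 4447 and 4778.5 RPKM in the brain tumors, against 461 and 2093 in the lung tumors. Its log2 fold change was 2.20 (SE 0.70, limma adjusted p = 0.073) and missed the threshold. The 3 remaining genes, mt-Nd2, mt-Nd4 and mt-Nd6, had log2 fold changes of 1.69, 1.85 and 1.03, with limma adjusted p = 0.070, 0.070 and 0.051, none of them called. In lung tumor 1 the mt-Nd6 value rests on 8 reads.

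Mouse cytochrome b is spelled mt-Cytb in the table and falls outside the symbol rule. It had 4656, 4843 and 4816 RPKM in the brain tumors, against 663 and 2301 in the lung tumors (log2 fold change 1.95, SE 0.63, limma adjusted p = 0.075). The ribosomal RNAs of the mitochondrion, which share its transcription unit, did pass the test in the host. For mt-Rnr1 the RPKM were 2416, 2431 and 1571 in the brain tumors, against 406 and 189 in the lung tumors, and for mt-Rnr2 2332, 2453 and 2065 in the brain tumors, against 456 and 221 in the lung tumors. Their log2 fold changes were 2.92 (limma adjusted p = 0.011) and 2.84 (limma adjusted p = 0.009). In the cancer cells MT-RNR1 had 453, 639 and 682 RPKM in the brain tumors, against 1135 and 177 in the lung tumors, with no call (log2 fold change 0.37, limma adjusted p = 0.845).

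The nuclear subunits of the host had no common direction. Their median log2 fold change was -0.13, with 30 of 79 above 0. It was 0.02 after median-ratio scaling, where the median of all genes moved to 0.22, and also 0.02 after the gene-length correction, where that of all genes was -0.06. It was 0.63 without lung tumor 1 and -0.95 without lung tumor 2. The sign thus depends on which lung tumor is kept and, with values near 0, on the processing. As in the cancer cells, lung tumor 1 was the highest library in most of them, 61 of 79, against 26.6% of all genes. That library has 231156 mouse reads beside 6541037 human reads, and how reads were sorted by species is not given. Whether the host count is independent of the count in the cancer cells was not tested. Host genes in lung tumor 1 also differed by implied length, which can again be a fraction of the true one. The shortest of 5 equal groups, with 55 of the 79 subunits, deviated from the mean of the libraries by a median of -0.08. The longest deviated by -0.82, and the nuclear subunits by 0.90 on the log2 scale. The part of length in this count was not tested. Lung tumor 2 differed from the brain mean by a median of -0.63, and lung tumor 1 by 0.95. Every brain tumor lay above both lung tumors in 12 of 79 (30.0% of all genes) and below both in 6 (26.2% of all genes). With lung tumor 1 left out, all 6 mitochondrially encoded genes and 11 nuclear subunits were called higher (16.1% of all genes) and 3 nuclear subunits lower (13.7% of all genes). Without lung tumor 2, all 6 and 8 nuclear subunits were called higher (33.3% of all genes) and 45 nuclear subunits lower (20.3% of all genes).

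Among the 12 nuclear subunits with every brain tumor above both lung tumors were Ndufs1, Sdha, Uqcrc2, Cyc1, Atp5a1 and Atp5b. Ndufs1, the iron-sulfur subunit of complex I, had 185, 176 and 235 RPKM in the brain tumors, against 76.5 and 105 in the lung tumors (log2 fold change 1.13, SE 0.31, limma adjusted p = 0.051). Sdha, the flavoprotein of complex II, had 1072, 933 and 1043 RPKM in the brain tumors, against 540.4 and 515 in the lung tumors (log2 fold change 0.94, SE 0.32, limma adjusted p = 0.086). Uqcrc2, a core protein of complex III, had 276, 278 and 370 RPKM in the brain tumors, against 144 and 156 in the lung tumors (log2 fold change 1.02, SE 0.30, limma adjusted p = 0.060). Cyc1 had 101, 95.0 and 124 RPKM in the brain tumors, against 53.0 and 59.2 in the lung tumors (log2 fold change 0.91, SE 0.28, limma adjusted p = 0.069). None of these passed the threshold. In the ATP synthase, Atp5b had 1562, 1330.0 and 1767 RPKM in the brain tumors, against 1196 and 747 in the lung tumors, and Atp5a1 was likewise above both lung tumors in each brain tumor. Atp5g1 had 4.98, 2.90 and 2.84 RPKM in the brain tumors, against 0 and 0.967 in the lung tumors. At the depth of lung tumor 1, 3 reads of Atp5g1 are worth 4.73 RPKM, above its values in brain tumors 2 and 3 and near that in brain tumor 1, so a difference between lung tumor 1 and the brain tumors is hardly detectable at this depth.

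Of the 6 nuclear subunits with every brain tumor below both lung tumors, 5 belong to complex IV, namely Cox4i2, Cox6a2, Cox7a1, Cox7c and Cox8b. The remaining one, Uqcrb, belongs to complex III. Uqcrb had 38.0 RPKM in brain tumor 1 and 38.3 in lung tumor 2, on 29 and 57 reads, and 5 reads in lung tumor 1. Its order is thus not detectable at these depths. The complex IV genes are 5 of 17 tested, where 26.2% of all host genes had this order. Cox7c rests on 4, 12 and 9 reads in the brain tumors, against 3 and 18 in the lung tumors. Over all 79, 49 had a negative fold change, 24 of them in complex I and 10 in complex IV. Cox4i2, the isoform of subunit 4 known from lung and from contractile cells of small vessels, had 4.94, 4.09 and 3.73 RPKM in the brain tumors, against 75.1 and 52.9 in the lung tumors. It averaged 4.25 ± 0.621 RPKM in the brain tumors (SD, n = 3) and 64.0 ± 15.6 in the lung tumors (SD, n = 2), and fell by 3.62 on the log2 scale (SE 0.36, limma adjusted p = 0.002). Its call held in the other fits run, each left-out library included. The common isoform Cox4i1 had 665, 611 and 736 RPKM in the brain tumors, against 1456 and 288 in the lung tumors, with a log2 fold change of 0.05. Ndufa4l2, a paralog of the complex IV subunit Ndufa4 that is induced by low oxygen and marks pericytes, had 14.3, 7.47 and 6.73 RPKM in the brain tumors, against 570.8 and 34.5 in the lung tumors. All brain tumors were below both lung tumors, though the log2 fold change was -3.83 (SE 1.14, limma adjusted p = 0.061), which was not called. Ndufa4 itself had 358, 326 and 532 RPKM in the brain tumors, against 342 and 216 in the lung tumors. Beside these, the summed RPKM of 6 smooth muscle and pericyte markers were 226, 175 and 102 in the brain tumors, against 1173 and 301 in the lung tumors. Acta2 had 15.6, 8.16 and 6.30 against 435 and 129, and Tagln 16.6, 14.8 and 6.79 against 454 and 124. The other markers, Myh11, Rgs5, Kcnj8 and Abcc9, did not separate the groups. Rgs5 was at 176, 144 and 82.8 against 255 and 17.7, so lung tumor 2 was below every brain tumor. The part of these markers in the result was not tested.

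Cox6a2, Cox7a1 and Cox8b are the isoforms of heart and skeletal muscle. Cox8b had 1.00, 1.11 and 2.20 RPKM in the brain tumors, against 117 and 8.73 in the lung tumors, and fell by 3.83 on the log2 scale (SE 1.04, limma adjusted p = 0.049). These values rest on 1, 2 and 7 reads in the brain tumors, against 10 and 17 in the lung tumors. The call was lost in 8 of 13 alternative fits. The limma adjusted p was 0.144 to 0.153 without any 1 of the brain tumors, and 0.052 to 0.091 at a pseudocount of 0.1, with no filter, with median-ratio scaling, with the replicate block and with voom. Cox6a2 had 9.54, 2.93 and 2.33 RPKM in the brain tumors, against 111.6 and 13.9 in the lung tumors (log2 fold change -2.98, SE 0.97, limma adjusted p = 0.077). Cox7a1 had 7.39, 0.907 and 3.61 RPKM in the brain tumors, against 19.2 and 7.58 in the lung tumors, and rests on 9, 2 and 14 reads in the brain tumors, against 2 and 18 in the lung tumors. In all 3 genes lung tumor 1 was the highest library, and the brain tumors were below both lung tumors, which for Cox7a1 is not detectable at these depths. Over the 9 striated and heart muscle markers the summed RPKM were 13.7, 15.4 and 9.90 in the brain tumors, against 982 and 500.4 in the lung tumors. Within them, Ckm and Acta1 had 294 and 406 RPKM in lung tumor 1, compared with 8.08 and 0.258 in lung tumor 2. Mb and Myl2 were also higher in lung tumor 1, Myl2 with 53.7 RPKM there and 0 in lung tumor 2. Myh6 went the other way, at 0 in lung tumor 1 and at 286 in lung tumor 2, as did Myh7, Tnnt2, Actc1 and Tnni3. The part of the 9 markers in the result was not tested. Of the ubiquitous partner isoforms, Cox6a1 and Cox7a2 did not separate the groups. Cox8a went the other way, with 405, 362 and 433 RPKM in the brain tumors, against 271 and 149.6 in the lung tumors. Every brain tumor was above both lung tumors, as in 30.0% of all genes (log2 fold change 0.98, SE 0.36, limma adjusted p = 0.106).

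**Figure D4:**
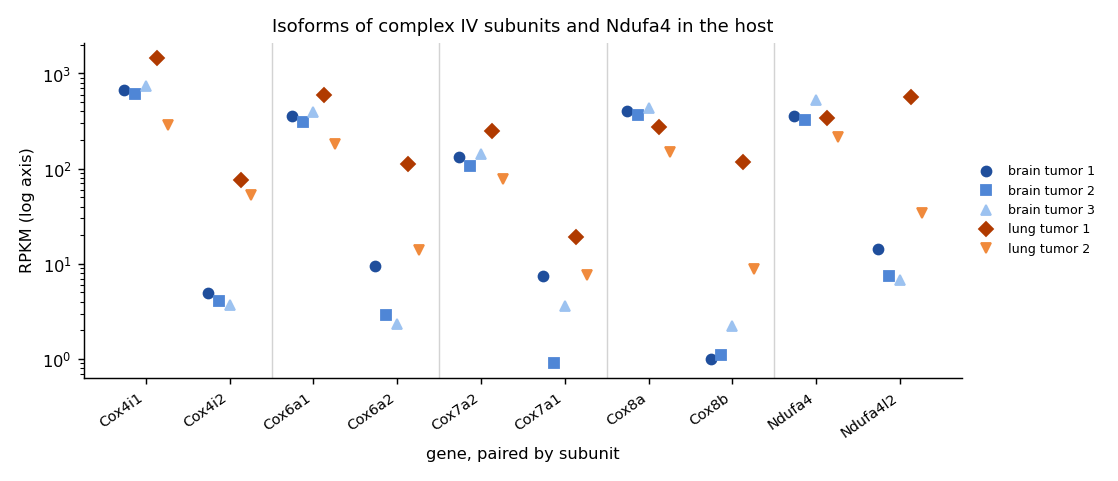
RPKM of the host (log axis) for isoforms of 4 complex IV subunits and for Ndufa4 with its paralog Ndufa4l2, with the common form left and the tissue form right in each pair and 1 point per library. Cox4i2, Cox6a2, Cox7a1, Cox8b and Ndufa4l2 are lower in all 3 brain tumors than in both lung tumors, and lung tumor 1 is the highest library for each.

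The same library gives cancer and host values, so the brain minus lung difference could be compared between them directly. Of 10189 genes with the same symbol in both tables, 1665 differed in it (16.3%), 802 with a higher value in the cancer cells (7.87%) and 863 with a lower one (8.47%). So did 6 of the 82 members (7.32%). ATP5G1, COX8A, COX5B, NDUFA13 and NDUFV1 had a lower brain minus lung difference in the cancer cells than in the host, and NDUFA4L2 a higher one. None of the 6 was called when any 1 brain tumor was left out, and NDUFA13, NDUFV1 and NDUFA4L2 were not called without lung tumor 1 either. For ATP5G1 the host values are under 5 RPKM with 0 reads in lung tumor 1, and the gene has near-identical copies, so its difference is uncertain. For COX8A, the ubiquitous form of subunit 8, the cancer cells had 194, 177 and 196 RPKM in the brain tumors, against 456 and 177 in the lung tumors. With the host Cox8a values given above, its log2 fold change was -0.59 in the cancer cells and 0.98 in the host, a difference of -1.57 (SE 0.30, limma adjusted p = 0.017). For NDUFA4L2 the cancer cells had 2.35, 0.926 and 1.62 RPKM in the brain tumors, against 11.98 and 1.32 in the lung tumors. Its log2 fold change was -1.10 in the cancer cells and -3.83 in the host, a difference of 2.74 (SE 0.60, limma adjusted p = 0.025).

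COX5B is a peripheral subunit of complex IV. Its cancer cell values were 246, 215 and 228 RPKM in the brain tumors, against 903 and 202 in the lung tumors, and its host values 147, 139 and 174 RPKM in the brain tumors, against 203 and 55.4 in the lung tumors. The difference of the fold changes was -1.42 (SE 0.29, limma adjusted p = 0.021). NDUFV1 binds the flavin through which complex I takes up electrons from NADH. It had 253, 238 and 252 RPKM in the cancer cells of the brain tumors, against 639 and 267 in those of the lung tumors, and 211, 177 and 233 in the host of the brain tumors, against 205 and 113 in that of the lung tumors. Here the difference was -1.17 (SE 0.29, limma adjusted p = 0.038).

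All 6 mitochondrially encoded pairs had a smaller brain minus lung difference in the cancer cells than in the host, by -1.51 (MT-ND2) to -0.33 (MT-ND6) on the log2 scale. None was called. At an unadjusted p under 0.05, limma gave 3 of them, beside 3360 of all 10189 pairs. The summed RPKM of these 6 genes in the cancer cells were 1.43, 2.09 and 1.35 times those of the host in the brain tumors, against 4.36 and 2.57 times in the lung tumors. For the paired nuclear subunits the same quotient was 0.961, 1.02 and 0.768 in the brain tumors, against 1.33 and 1.43 in the lung tumors. In both sets the quotient was lower in every brain tumor than in either lung tumor. The paired nuclear subunits had a median difference of -0.44, beside 0.14 over all pairs. Median-ratio scaling put the median of all pairs at -0.14 and the number of members called at 12.

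**Figure D5:**
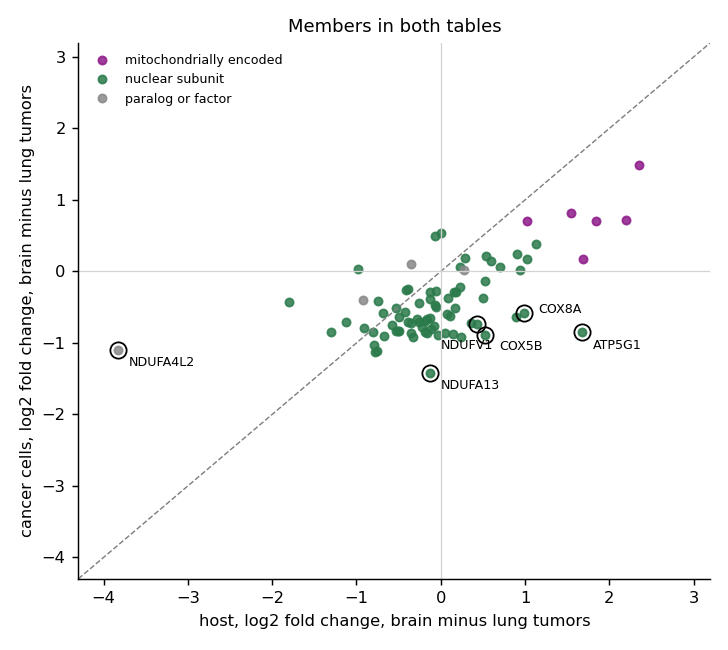
Log2 fold change, brain minus lung tumors, of each member found in both tables, in the host (horizontal axis) and in the cancer cells (vertical axis), with the dashed line marking equal values. The 6 members whose difference was called are ringed and named; the mitochondrially encoded genes lie to the right of the line with positive values on both axes, and most nuclear subunits lie below 0 on the vertical axis.

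Levels in the cancer cells differed from those in the host, per length and over all 5 libraries, in 62 of the 82 members, a share of 75.6% beside 73.8% of all pairs. The level was higher in the cancer cells in 36 (48.5% of all pairs) and lower in 26 (25.3% of all pairs). The 6 mitochondrially encoded pairs had a median log2 difference of 1.12, and 4 of them were called. MT-ND4 was the extreme among them, with a mean of 7128 RPKM in the cancer cells and of 1175 in the host (log2 difference 2.93, SE 0.23). MT-ND1 and MT-ND2 were not called, with log2 differences of 0.05 and 0.65. SDHA had 129 RPKM in the cancer cells and 821 in the host (log2 difference -2.51). The recovered reads imply gene lengths of 1213 bases in human and 438 in mouse, but only up to a common divisor. Each can be a fraction of the true length. The lengths behind RPKM are not given, so this comparison is uncertain. Several extremes of this comparison involve genes with near-identical copies elsewhere in the genome. Examples are ATP5G2, with 406 RPKM in the cancer cells and 1.01 in the host, COX7C with 465 and 8.56, and NDUFV2 with 7.23 and 183. How reads that match several copies were counted is not given in the sources used here, so these levels are uncertain.

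Genes that serve the chain without being part of it were given by 4 lists. In the cancer cells none of the members of any list was called. Transcription and biogenesis had 0 of 19, assembly factors 0 of 47, carriers and the quinone path 0 of 15 and the mitochondrial ribosome 0 of 77. At an unadjusted p under 0.05, limma gave 1, 2, 1 and 7 of these as lower in the brain tumors and 1 carrier gene as higher. The mitochondrial ribosome proteins were highest in lung tumor 1 in 55 of 77, the assembly factors in 24 of 47, the carriers in 7 of 15 and the transcription and biogenesis genes in 2 of 19, beside 24.2% of all genes. TFAM, which packages and transcribes mitochondrial DNA, had 83.1, 73.9 and 107 RPKM in the cancer cells of the brain tumors, against 44.9 and 66.2 in those of the lung tumors (log2 fold change 0.67, SE 0.35, limma adjusted p = 0.506). CYCS, the electron carrier cytochrome c, had 105, 82.1 and 83.5 RPKM in the brain tumors, against 179 and 133 in the lung tumors (log2 fold change -0.78, SE 0.32, limma adjusted p = 0.473).

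In the host, 2 of 18 transcription and biogenesis genes were called, both higher in the brain tumors, Ppargc1a and Ppargc1b, coactivators that drive mitochondrial gene programs. Ppargc1a had 26.0, 27.8 and 27.9 RPKM in the brain tumors, against 0 and 2.08 in the lung tumors, where 3 reads in lung tumor 1 are worth 4.59 RPKM. On the log2 scale it rose by 4.01 (SE 0.56, limma adjusted p = 0.006). Of the assembly factors 4 of 45 were called, all higher, Atpaf1, Ndufaf5, Ttc19 and Ecsit. Of the carriers 1 of 15 was, the glycerol phosphate dehydrogenase Gpd2, with 66.1, 63.1 and 50.1 RPKM in the brain tumors, against 9.69 and 20.9 in the lung tumors (log2 fold change 1.98, SE 0.41, limma adjusted p = 0.021). The mitochondrial ribosome had 3 of 76 called, all lower, Mrps21, Mrpl33 and Mrpl14. Mrpl33 had 17.7, 17.0 and 14.4 RPKM in the brain tumors, against 130.9 and 44.0 in the lung tumors (log2 fold change -2.15, SE 0.51, limma adjusted p = 0.032). These shares stand beside 14.3% of all host genes called higher and 8.12% called lower.

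The remaining members were at low levels or did not separate the groups. Of the 28 human pseudogenes 6 passed the filter of 1 RPKM in 2 libraries, of the 3 antisense genes 2 did, and the readthrough transcript and the 3 mouse pseudogenes did not. The pseudogene NDUFB1P1 had an unadjusted p under 0.05, but its values, 0.643, 0 and 0 RPKM in the brain tumors, against 2.49 and 1.45 in the lung tumors, rest on 3 reads or fewer. COX7A2L, a factor that joins complexes III and IV, had 157, 131 and 168 RPKM in the cancer cells of the brain tumors, against 323 and 124 in those of the lung tumors.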

How the data were processed

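RNA sequencing libraries of 3 brain and 2 lung tumors were analysed. The authors deposited RPKM for human and mouse genes, on builds hg38 and mm10 per the submitters' processing notes. Not given in the sources used here are the aligner, the counter, the lengths behind RPKM and how reads were sorted by species. Whole reads were recovered from ratios of RPKM between libraries, up to a common divisor. They gave depth, counting limits, gene lengths for the length groups and length correction, limma voom and the total without mitochondrially encoded genes. An implied length can therefore be a fraction of the true one. MT-CO1 came out at 0.513 of its span, where MT-ND1 came out at 1.03. The counting limits, at 3 reads, cover counting error only.

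Log2(RPKM + 1) of genes with 1 RPKM or more in at least 2 libraries was analysed in limma 3.58.1 under R 4.3.3 (trend, two-sided, Benjamini-Hochberg adjustment over all genes tested, threshold 0.05). A fold change on this scale understates low genes. The cancer minus host difference was fitted in the same way on the within-library difference of same-symbol genes. NDUFA4 was counted in complex IV. Genes were named by rule: all mitochondrially encoded genes, the 2 most abundant nuclear subunits per complex, called members, the lowest p in each direction and the isoform sets. A result that this rule would name is not reported here. Others were picked after their values were seen, among them human SDHA, NDUFA6, NDUFS7, NDUFV3 and COX7C, mouse Uqcrb, the called genes of the pathway lists, TFAM and CYCS. Human positions are of RefSeq on GRCh38.p14. Members and lists were chosen with earlier results of these data known.

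Alternatives were other pseudocounts, filters, scalings, a length correction, a replicate block, left-out libraries and, added after seeing the data, limma voom on the recovered reads.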

Additional observations from a re-analysis of the deposited data

Results flagged for a closer look

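For 6 members the brain minus lung difference of the cancer cells differed from that of the host in a test of the difference itself (limma, adjusted over 10189 same-symbol genes). On the log2 scale it was -2.53 for ATP5G1 (SE 0.60, limma adjusted p = 0.033), with -0.85 in the cancer cells and 1.67 in the host, where the host values lie under 5 RPKM with 0 reads in lung tumor 1. Without lung tumor 1 it was -1.58 (limma adjusted p = 0.048), and since the gene has near-identical copies its host values are uncertain. It was -1.57 for COX8A (limma adjusted p = 0.017), -1.42 for COX5B (limma adjusted p = 0.021), -1.17 for NDUFV1 (limma adjusted p = 0.038) and 2.74 for NDUFA4L2 (limma adjusted p = 0.025). For NDUFA13 it was -1.29 (SE 0.33, limma adjusted p = 0.042), with -1.42 in the cancer cells and -0.13 in the host, whose RPKM were 91.0, 66.3 and 81.5 in the brain tumors, against 149 and 49.98 in the lung tumors.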

How the results depend on the processing

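Over the named genes, 433 values under an alternative kept their direction and their side of the threshold, 48 lost and 34 gained a call, and 8 changed sign. For each of these the cause was not tested. The human genes called, 1 as reported, were 114 with the replicate block and 0 with limma voom, and 0 to 1905 with 1 library left out. The human members called, 0 as reported, were 0 to 50 with 1 library left out. In the host 3457 genes and 4 members were called. With no filter these were 2295 and 1, with the replicate block 1484 and 2, and with 1 library left out 1195 to 8275 and 1 to 61. The members were 2 at a pseudocount of 0.1 and 8 with limma voom. Of the cancer minus host differences, 6 members as reported, 12 were called with median-ratio scaling and 1 with the replicate block, and 0 to 19 members and 414 to 3486 genes with 1 library left out. In that fit 802 of 1665 calls were higher, and 551 of 1629 after median-ratio scaling.

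With 1 library left out, the median log2 fold change ran from -1.36 to 0.11 for the human and from -0.95 to 0.63 for the mouse nuclear subunits, and from 1.03 to 2.58 for the mouse mitochondrially encoded genes. The brain over lung quotient of the mitochondrial to nuclear ratio ran from 1.69 to 3.18 in the cancer cells and from 1.33 to 8.83 in the host. Log2 fold changes that changed sign ran from -0.53 to 1.14 for MT-CO2, -0.16 to 1.49 for MT-CO3, -0.088 to 0.45 for MT-ND2, -1.22 to 0.78 for MT-ND3, -0.017 to 1.02 for NDUFA5, -0.059 to 0.83 for NDUFS1 and -0.092 to 1.05 for NDUFV2. NDUFV2 was also at -0.092 with the replicate block.

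The replicate numbers share only a label. Same-numbered libraries deviated together with correlations of -0.08 and 0.06 in human and 0.03 and 0.05 in mouse genes, and the block rests on 2 pairs. Median-ratio scaling moved the median of all genes from 0.09 to -0.03 in human and from 0.08 to 0.22 in mouse genes. A fit with 1 lung tumor assumes that it varies like the brain tumors. The planned count tests other than limma voom were not run, since the deposited values are RPKM. Depth limits the host of lung tumor 1 most.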
